A study of Mus musculus with 8 samples.

Results

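The lysosomal genes described here are 44 transcripts for enzymes, membrane proteins, proton pump subunits and 1 regulator of the lysosome, followed across 8 microarrays of cultured mouse bone marrow progenitors. They were named as a gene module with earlier results of these data known. They were found by taking every probeset (a set of array probes for 1 transcript) that is mapped to exactly 1 gene among the 44. All 44 were measured, by 45 of the 21789 probesets with exactly 1 gene, which cover 19938 genes. Arsb had 2 probesets and is given by the brighter, and every other member had 1.

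The study grew lymphoid primed multipotent progenitors, sorted as lineage marker-negative, Sca+, kit+ and Flt3high, on OP9-DL4, a stromal cell line that presents a Notch ligand. T lineage cells (Thy1+CD25+, 2 arrays) came from Tcf7+/+ progenitors. Deficient lineage-negative cells (3 arrays from 3 mice, in the gate Mac1-Gr1-Thy1-CD25-) came from Tcf7-/- progenitors, which lack the transcription factor Tcf1 in all cells and, per the labels, gave no T lineage cells in these cultures. Wildtype lineage-negative cells (the same gate, 3 arrays from 3 mice) came from Tcf7+/+ progenitors. All 3 groups share the stroma, day 4 of culture, IL1 (as the labels spell it) at 1 ng/ml, Flt3L at 5 ng/ml, a sort on CD45.2 and a mixed strain background after about 6 generations of backcrossing. The ages and sexes of the mice were not in the labels. The Tcf7 transcript was not analysed here, so the genotypes were not checked against it.

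Lysosomes are acidic compartments in which proteases, glycosidases, lipases and sulfatases break down what a cell takes up or discards. The vacuolar ATPase pumps protons into them, heavily glycosylated membrane proteins line them, and the transcription factor Tfeb activates many of their genes. Phagocytes and dendritic cells use cathepsins, the lysosomal proteases, to cut antigens and the invariant chain of MHC class II, and lymphocytes are known for smaller lysosomal compartments than phagocytes.

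The levels below are log2 expression values, and each difference is a log2 difference from the limma fit with its standard error (SE). A gene was called where its adjusted p (Benjamini-Hochberg over the 21789 probesets) was under 0.05. Of 12 T lineage markers, 11 rose in T lineage cells relative to the wildtype lineage-negative ones, where 7.66% of all probesets were called higher. Among them were Cd3g, Lat and Gata3. Thy1 and Il2ra (CD25) were also among them, and since the cells were sorted on these, their rise is no check of the gate. The 2 T lineage arrays were not alike in these markers. The mean of the 12 was 9.44 in T lineage replicate 1 and 8.81 in replicate 2, against 6.73 to 6.85 in lineage-negative arrays. The array medians lay between 6.85 and 6.91.

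Most of the lysosomal genes stood lower in T lineage cells than in the wildtype lineage-negative ones. Of the 44, 27 fell, 1 rose and 16 did not pass the test. Over all probesets, 10.4% were called lower and 7.66% higher in this comparison, or 18% in either direction. The median difference of the 44 genes was -0.48, while that of all probesets was 0.04. Among those called, 14 were lower by at least 2-fold, which held for 2.38% of all probesets. Both T lineage arrays lay below all 3 wildtype lineage-negative arrays for 32 of the 44 genes and above them for 3, while 19.8% of all probesets lay below and 28% above. The 44 genes were chosen with earlier results of these data known, so their excess over the shares of all probesets is no independent result. In sorted bulk RNA, a smaller number of cells of a lysosome-rich type and less transcript per cell cannot be told apart.

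Some markers of phagocytes and most of those of dendritic cells fell along with the lysosomal genes. Mac1- and Gr1-positive cells had been sorted out of the lineage-negative groups. Of 17 macrophage and monocyte markers, 9 fell in T lineage cells and none rose, with the largest falls at Mpeg1, Lyz2 and Csf1r. The 8 that did not pass, such as Cd14, Marco and C1qa, had means over all arrays below the array medians. The mean level of the list was 6.29 to 6.36 in T lineage arrays, 7.28 to 7.35 in deficient and 7.37 to 7.50 in wildtype lineage-negative arrays. Of 14 conventional dendritic cell markers, 11 fell, with list means of 6.34 to 6.42 in T lineage, 8.39 to 8.58 in deficient and 8.51 to 8.78 in wildtype lineage-negative arrays. Of 10 plasmacytoid dendritic cell markers, 9 fell, with list means of 7.74 to 7.86 in T lineage, 9.14 to 9.37 in deficient and 9.42 to 9.59 in wildtype lineage-negative arrays. Of 13 granulocyte markers, 5 fell and 8 did not pass, with list means of 6.58 to 6.64, 7.48 to 7.59 and 7.42 to 7.97 in the same order of groups. Of 13 stromal markers, 1 fell, with list means of 6.497 to 6.58, 6.58 to 6.72 and 6.57 to 6.60. Of 9 mast cell and basophil markers, 1 rose and 1 fell, with list means of 6.71 to 6.78, 6.29 to 6.68 and 6.41 to 6.62. The part of these cell types in the lysosomal differences was not tested.

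The proteases held the largest differences. Of the 10 cathepsins and legumain, 8 fell in T lineage cells, Ctsd rose and Ctsk, an enzyme best known from osteoclasts, did not pass (difference 0.00). Their median difference was -1.08. Ctsk was dim, with a mean of 5.63 over all arrays, below the array medians. Ctsh encodes cathepsin H, an aminopeptidase, and read 5.62 and 5.80 in T lineage arrays, against 10.26, 9.72 and 9.87 in deficient and 10.13, 10.31 and 10.43 in wildtype lineage-negative arrays. Both T lineage values stood far below every lineage-negative value, 23.9-fold lower than in wildtype cells (difference -4.58, SE 0.15, limma adjusted p = 2.7e-08).

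Ctss encodes cathepsin S, which cuts the invariant chain in antigen-presenting cells. It read 6.96 and 8.18 in T lineage arrays, against 11.41, 11.38 and 11.35 in deficient and 11.48, 11.62 and 11.71 in wildtype lineage-negative arrays. The T lineage replicates stood further apart than any lineage-negative replicates of this gene, and both were below all of them (difference from wildtype -4.03, SE 0.26, 16.3-fold, limma adjusted p = 2.1e-06). The SDs were 0.86 in T lineage (n = 2), 0.03 in deficient and 0.11 in wildtype cells (n = 3 each). The SE rests on 1 spread shared by the 3 groups, so it may be too small for the T lineage difference. Leaving out either T lineage array kept the call, with differences of -4.64 and -3.42.

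Lgmn encodes legumain, an endopeptidase that cuts after asparagine and activates several cathepsins. It read 5.90 and 6.23 in T lineage arrays, against 8.93, 8.56 and 8.83 in deficient and 8.78, 8.86 and 9.19 in wildtype lineage-negative arrays. The lineage-negative groups overlapped and the T lineage arrays lay below both (difference from wildtype -2.88, SE 0.15, 7.38-fold, limma adjusted p = 4.6e-07).

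Ctsb encodes cathepsin B, a cysteine protease of most tissues. It read 8.47 and 8.36 in T lineage arrays, against 9.64, 9.49 and 9.51 in deficient and 9.76, 9.65 and 9.84 in wildtype lineage-negative arrays. No values of the 3 groups overlapped, although deficient replicate 1 and wildtype replicate 2 were close, and T lineage cells were 2.52-fold below wildtype (difference -1.33, SE 0.09, limma adjusted p = 2.5e-06). The carboxypeptidases Ctsz and Ctsa differed by -1.09 and -1.07, and Ctsc, which activates granule serine proteases, by -0.67, and all 3 fell.

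Ctsl, cathepsin L, was the lysosomal gene with the largest difference between the lineage-negative groups. It read 8.51 and 8.47 in T lineage arrays, against 9.14, 9.02 and 8.87 in deficient and 9.30, 9.77 and 9.57 in wildtype lineage-negative arrays. The 3 groups formed 3 steps without overlap, with the deficient arrays in the middle. The difference of T lineage from wildtype cells was -1.06 (SE 0.13, limma adjusted p = 0.00023), and that of T lineage from deficient cells was -0.52 (SE 0.13, limma adjusted p = 0.022). The difference of deficient from wildtype cells was -0.54 and was not called (SE 0.12, limma adjusted p = 0.438).

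Ctsd encodes cathepsin D, the main aspartic protease of lysosomes, and was the 1 lysosomal gene called higher. It read 10.59 and 10.19 in T lineage arrays, against 9.88, 9.86 and 10.08 in deficient and 9.90, 9.87 and 10.02 in wildtype lineage-negative arrays. Both T lineage values were above all others, with replicate 1 well above replicate 2 (difference from wildtype 0.46, SE 0.12, limma adjusted p = 0.021). The call was lost without T lineage replicate 1 (difference 0.26, limma adjusted p = 0.216), without wildtype replicate 1 (0.45, 0.0599) or without wildtype replicate 2 (0.43, 0.0676), and the limma adjusted p ranged between 0.00419 and 0.216 over the alternatives tried.

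**Figure D1:**
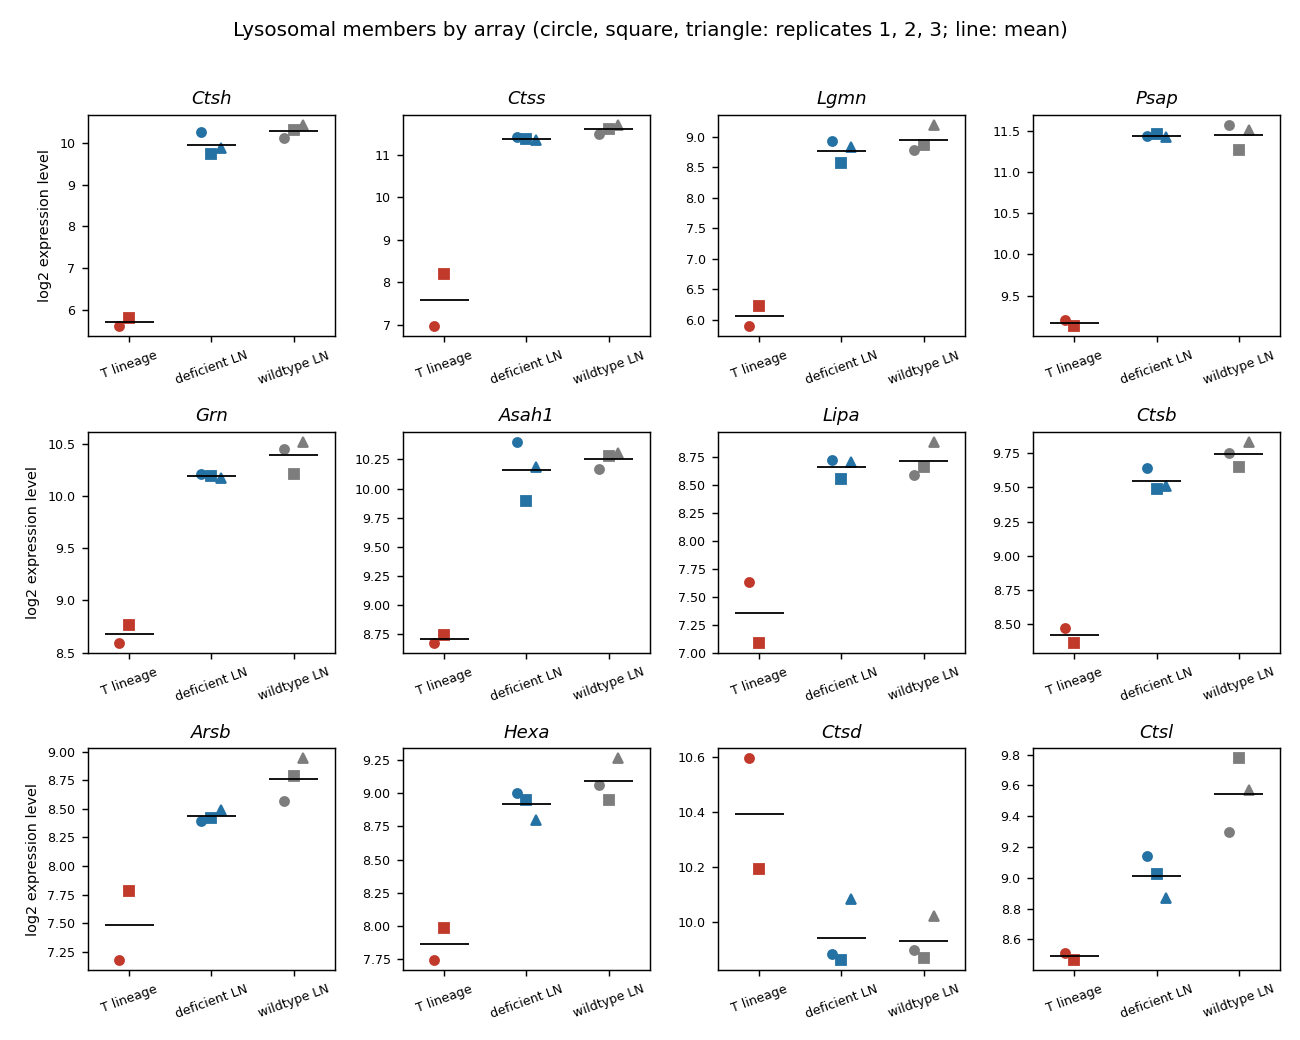
Log2 expression level of 12 lysosomal genes on each array of T lineage (red, 2 arrays), deficient lineage-negative (LN, blue, 3 arrays) and wildtype LN cells (grey, 3 arrays), with a line at each group mean and a scale of its own in each panel. The T lineage arrays lie below every LN array in 11 panels and above them for Ctsd, and for Ctsl the deficient arrays (8.87 to 9.14) lie between the T lineage (8.47 and 8.51) and wildtype arrays (9.30 to 9.77). The Ctsl difference between deficient and wildtype LN cells was not called.

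Promoter sequence was set beside these differences for motifs picked with the results known. RefSeq windows of 300 bases (250 before and 50 after a gene's start, mouse build GRCm38.p6) were held for 38 of the 44 genes and not for Asah1, Atp6v1b2, Atp6v1h, Ctsb, Ctsh and Npc1. CACGTG, the core of the motif that Tfeb and its relatives bind and of many other E-box factors, reads the same on both strands and was in 14 of the 38 genes (36.8%), against 8.09% of the 27025 genes with a window. The longer GTCACGTG, which holds CACGTG and was searched on both strands, was in 11 of the 38 genes (28.9%) and in 2.55% of all genes. GAGGAAGT, an ETS-type motif of the kind PU.1 binds, was in 4 of the 38 genes on either strand (10.5%) and in 3.69% of all genes. The windows of the gene that rose, of 2 proteases that fell and of the most reduced protease with a window are shown, 5′ to 3′ on the gene's strand, because their differences point opposite ways or differ most in size. Capitals mark CACGTG in Ctsd (chr7:142387778-142388077, minus strand), in 1 of 2 windows of Lgmn (chr12:102439043-102439342, minus strand) and in Ctsl (chr13:64370471-64370770, minus strand), and the reverse complement of GAGGAAGT in Ctss (chr3:95526536-95526835, plus strand).
Ctsd: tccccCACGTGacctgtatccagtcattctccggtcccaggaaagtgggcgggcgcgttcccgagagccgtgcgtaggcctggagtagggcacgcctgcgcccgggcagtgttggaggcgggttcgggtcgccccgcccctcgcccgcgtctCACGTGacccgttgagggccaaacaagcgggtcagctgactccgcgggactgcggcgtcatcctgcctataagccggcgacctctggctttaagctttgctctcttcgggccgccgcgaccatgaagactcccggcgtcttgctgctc
Lgmn: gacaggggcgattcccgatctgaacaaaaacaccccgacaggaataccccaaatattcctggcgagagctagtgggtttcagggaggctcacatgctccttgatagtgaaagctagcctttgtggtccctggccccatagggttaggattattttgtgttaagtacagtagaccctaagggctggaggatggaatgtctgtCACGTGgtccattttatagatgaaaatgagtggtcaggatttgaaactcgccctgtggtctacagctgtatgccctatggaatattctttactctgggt
Ctsl: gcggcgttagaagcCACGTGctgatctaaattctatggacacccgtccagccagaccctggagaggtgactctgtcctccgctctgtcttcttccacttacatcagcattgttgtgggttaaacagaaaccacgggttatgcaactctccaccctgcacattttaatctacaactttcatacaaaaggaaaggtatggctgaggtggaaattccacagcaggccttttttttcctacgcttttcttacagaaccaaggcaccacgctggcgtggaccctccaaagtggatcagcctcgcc
Ctss: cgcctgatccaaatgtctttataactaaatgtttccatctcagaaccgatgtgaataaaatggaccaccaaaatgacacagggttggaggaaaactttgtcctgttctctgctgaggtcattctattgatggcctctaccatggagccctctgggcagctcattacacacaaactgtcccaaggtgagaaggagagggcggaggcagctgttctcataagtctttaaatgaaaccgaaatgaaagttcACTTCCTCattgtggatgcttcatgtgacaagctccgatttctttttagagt
Relative to the start site, the capitals begin at -245 and -98 in Ctsd, -49 in Lgmn, -236 in Ctsl and -2 in Ctss.

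Genes with and without CACGTG in the window both included members that fell. Of the 14 with it, 6 fell in T lineage cells, 1 rose and 7 did not pass, with a median difference from wildtype of -0.20. Of the 24 without it, 16 fell, none rose and 8 did not pass, with a median of -0.68. Of the 4 with GAGGAAGT, Ctss among them, 2 fell, none rose and 2 did not pass, with a median of -0.40. Of the 34 without GAGGAAGT, 20 fell, 1 rose and 13 did not pass, with a median of -0.48. These counts describe the genes with a window, and the differences between them were not tested.

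Proteins that handle lipids and the other soluble proteins came next in size. Of these 8 genes, 6 fell in T lineage cells, none rose, and Smpd1 and Ppt1 did not pass, with a median difference of -1.06. Psap encodes the precursor of the saposins, which help enzymes reach sphingolipids. It read 9.21 and 9.13 in T lineage arrays, against 11.44, 11.45 and 11.42 in deficient and 11.57, 11.27 and 11.50 in wildtype lineage-negative arrays. The replicates of each group were close together and the T lineage arrays lay well below, 4.85-fold under wildtype (difference -2.28, SE 0.09, limma adjusted p = 1.1e-07).

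Grn encodes progranulin, a growth factor-like protein needed for lysosome function. It read 8.59 and 8.76 in T lineage arrays, against 10.21, 10.19 and 10.17 in deficient and 10.45, 10.21 and 10.52 in wildtype lineage-negative arrays. The T lineage arrays were lowest, and the deficient arrays lay just under the lowest wildtype array (T lineage minus wildtype -1.72, SE 0.10, 3.28-fold, limma adjusted p = 1.1e-06).

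Asah1, the acid ceramidase, read 8.67 and 8.74 in T lineage arrays, against 10.40, 9.89 and 10.18 in deficient and 10.17, 10.28 and 10.30 in wildtype lineage-negative arrays. Its deficient arrays spread on both sides of the wildtype arrays, and the T lineage arrays lay below all 6 (difference from wildtype -1.54, SE 0.13, limma adjusted p = 1.3e-05). Lipa, the acid lipase that frees cholesterol from its esters, read 7.63 and 7.09 in T lineage arrays, against 8.72, 8.55 and 8.70 in deficient and 8.59, 8.66 and 8.88 in wildtype lineage-negative arrays. The T lineage replicates were again unlike each other and both low (difference from wildtype -1.35, SE 0.15, limma adjusted p = 9.5e-05).

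The cholesterol carrier Npc2 (-0.76) and the tripeptidyl peptidase Tpp1 (-0.47) fell by less. Smpd1, the acid sphingomyelinase, just missed the threshold (difference -0.39, limma adjusted p = 0.0504) and passed it without wildtype replicate 2, and the palmitoyl thioesterase Ppt1 differed by -0.27 (0.177).

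The enzymes that cleave sugar chains were split. Of 12 glycosidases and sulfatases, 5 fell in T lineage cells, none rose and 7 did not pass, with a median difference of -0.07. Arsb, arylsulfatase B of dermatan sulfate breakdown, read 7.18 and 7.78 in T lineage arrays, against 8.40, 8.42 and 8.49 in deficient and 8.57, 8.79 and 8.94 in wildtype lineage-negative arrays. On this probeset the groups did not overlap, and the T lineage replicates were widely spaced (difference from wildtype -1.28, SE 0.16, limma adjusted p = 0.00024). On its other probeset the T lineage arrays were again lowest (-1.05, limma adjusted p = 0.00013), but the deficient and wildtype arrays overlapped. Hexa, the alpha subunit of the hexosaminidase that degrades GM2 ganglioside, read 7.74 and 7.98 in T lineage arrays, against 9.004, 8.951 and 8.797 in deficient and 9.07, 8.95 and 9.26 in wildtype lineage-negative arrays. Its lineage-negative groups overlapped and the T lineage arrays were below both groups (difference from wildtype -1.23, SE 0.11, limma adjusted p = 2.8e-05).

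The other 3 that fell were the mannosidases Man2b1 (-0.81) and Manba (-0.55) and the iduronate sulfatase Ids (-0.68). The 7 that did not pass were Gla (-0.13), Arsa (-0.00), Neu1 (0.04), Glb1 (0.06), Naglu (0.10), Gusb (0.16) and Gaa (0.23), which remove galactose, sulfate, sialic acid, galactose, N-acetylglucosamine, glucuronic acid and glucose in that order. Gusb and Gaa were above all wildtype arrays on both T lineage arrays without reaching the threshold. Such a position alone was common, since 28% of all probesets lay above in this comparison. Arsa, Naglu, Neu1 and Gaa were dim, with means over all arrays of 6.53, 6.57, 6.82 and 7.06, near the array medians. A change at such levels may be missed. Gla, Glb1 and Gusb were brighter, at 8.22, 8.68 and 9.91.

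Of the 9 lysosomal membrane proteins, 6 fell, none rose and 3 did not pass, with a median difference of -0.42. Cd68, a glycoprotein of macrophage lysosomes, differed by -1.21 (SE 0.11, limma adjusted p = 2.5e-05), its levels being 8.26 ± 0.13 in T lineage (SD, n = 2), 9.33 ± 0.12 in deficient (SD, n = 3) and 9.47 ± 0.15 in wildtype lineage-negative cells (SD, n = 3). Of the main glycoproteins that line the membrane, Lamp2 differed by -0.79 and Lamp1 by -0.31, and both fell. Laptm5 (-0.56), the calcium channel Mcoln1 (-0.49) and the Batten disease protein Cln3 (-0.42) fell too. Scarb2, the receptor that brings glucocerebrosidase to lysosomes, differed by -0.25, the cholesterol exporter Npc1 by -0.03 and the tetraspanin Cd63 by 0.07, and these 3 did not pass. Lamp1 and Laptm5 lost the call without wildtype replicate 1, wildtype replicate 3 or either T lineage array, and Cln3 without wildtype replicate 1, wildtype replicate 3 or T lineage replicate 2.

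Of 4 vacuolar ATPase subunits, Atp6v1b2 (-0.46) and Atp6v1h (-0.28) fell. Both calls were lost without T lineage replicate 1, and that of Atp6v1h also without T lineage replicate 2 or wildtype replicate 3. Atp6v1a (-0.22), Atp6v0d1 (-0.19) and the regulator Tfeb (-0.11, limma adjusted p = 0.452) did not pass. Tfeb was dim, with a mean of 6.34 over all arrays, below the array medians, so a change may be missed.

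**Figure D2:**
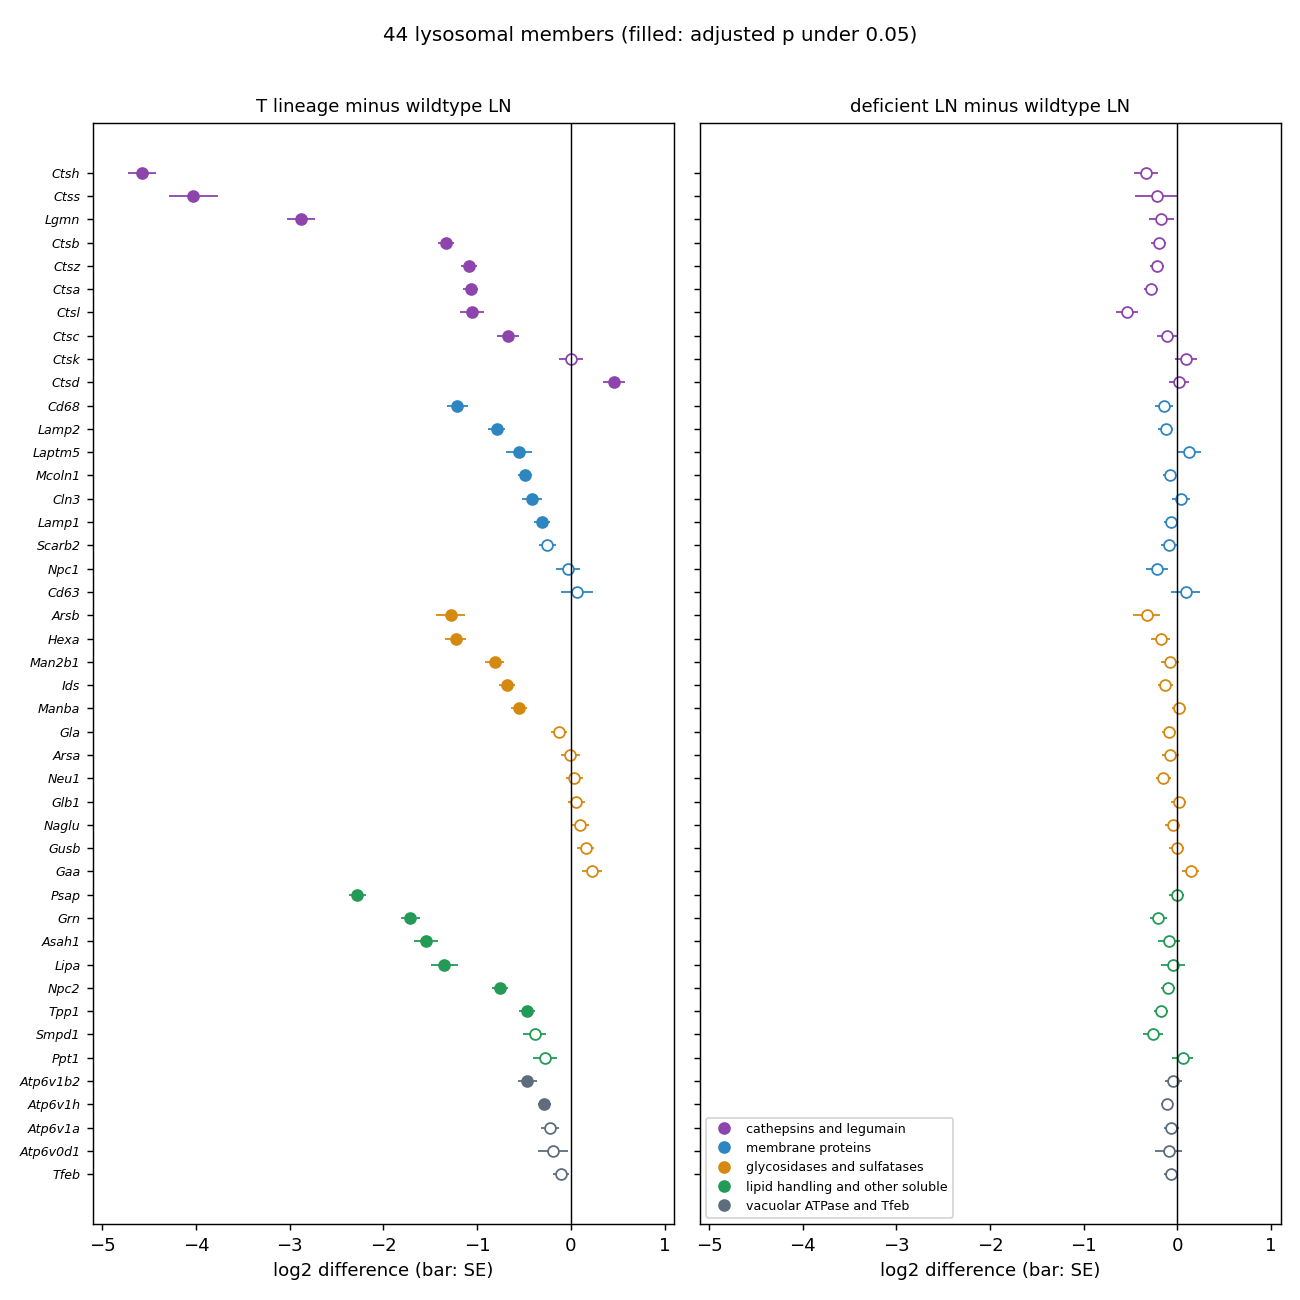
Log2 differences of the 44 lysosomal genes (points, with bars of 1 SE), ordered within each group of roles, for T lineage minus wildtype lineage-negative (LN) cells on the left and deficient minus wildtype LN cells on the right. Filled points have an adjusted p under 0.05: 28 on the left, from Ctsh at -4.58 to Ctsd at 0.46, and none on the right, where all lie between -0.54 and 0.14.

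T lineage cells were also set against deficient lineage-negative cells. This comparison shares the T lineage arrays with the one above, so it is no separate evidence for their level. Of the 44 lysosomal genes, 25 fell in T lineage cells, 1 rose and 18 did not pass, with 8.16% of all probesets called lower, 5.98% higher and 14.1% in either direction. The median difference was -0.43 and that of all probesets 0.04. Both T lineage arrays lay below all 3 deficient arrays for 30 of the 44 genes and above them for 4, while 17.1% of all probesets lay below and 23.6% above. Against deficient cells Ctsh differed by -4.24, Ctss by -3.81, Lgmn by -2.71, Psap by -2.27 and Grn by -1.51, and Ctsd by 0.45 (limma adjusted p = 0.030). Against wildtype cells those differences were -4.58, -4.03, -2.88, -2.28, -1.72 and 0.46 in the same order of genes.

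By role, 8 of the 10 cathepsins and legumain fell and 1 rose against deficient cells. So did 6 of 8 genes of lipid handling and other soluble proteins, 5 of 12 glycosidases and sulfatases, 5 of 9 membrane proteins and 1 of 5 among the ATPase subunits and Tfeb, with none higher. Lamp1 (-0.24, limma adjusted p = 0.0896) and Atp6v1h (-0.17, 0.167) passed against wildtype but not against deficient cells. The calls of Ctsc, Ctsd, Ctsl, Laptm5, Tpp1 and Atp6v1b2 against deficient cells were lost without T lineage replicate 1, those of Ctsl, Mcoln1, Cln3, Tpp1 and Atp6v1b2 without T lineage replicate 2, and some of these also without a deficient array. Whether any member's difference depended on which lineage-negative group it was set against is the deficient minus wildtype difference itself.

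Deficient and wildtype lineage-negative cells differed in none of the 44 lysosomal genes at a limma adjusted p under 0.05, where 0.00459% of all probesets (1 of 21789) passed. Without adjustment, 9 of the 44 had a limma p under 0.05, all lower in deficient cells, against 3.07% of all probesets lower and 4.92% in either direction. The median difference was -0.09, that of all probesets -0.01, and 35 of the 44 genes were negative, as were 11662 of the 21789 probesets. All 3 deficient arrays lay below all 3 wildtype arrays for 12 of the 44 genes and above them for none, while 6.01% of all probesets lay below and 3.93% above.

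Of those 9, 5 were cathepsins: Ctsl (-0.54), Ctsa (-0.28), Ctsz (-0.22), Ctsb (-0.20) and Ctsh (-0.34). The other 4 were Arsb (-0.33), the sphingomyelinase Smpd1 (-0.26), Grn (-0.21) and Tpp1 (-0.17). For Ctsl, limma gave an unadjusted p of 0.00084 and an adjusted p of 0.438. The 2 probesets of Arsb gave -0.33 and -0.11. Ctsh overlapped between the genotypes, since deficient replicate 1 read 10.26 and wildtype replicate 1 read 10.13. Over the alternatives tried, the Ctsl difference lay between -0.66 and -0.42 and its limma adjusted p between 0.0956 and 1.

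The count of 9 moved with single arrays. It was 4 without deficient replicate 2, 2 without deficient replicate 3 and 2 without wildtype replicate 3, which had the highest lineage-negative value for 25 of the 44 genes and for 16% of all probesets. Wildtype replicate 3 also had the highest list means of macrophage, conventional dendritic, plasmacytoid dendritic and granulocyte markers among the lineage-negative arrays, and the plasmacytoid list was lower in every deficient array (9.14 to 9.37) than in every wildtype array (9.42 to 9.59). The part of these markers in the lysosomal differences was not tested.

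Sex-linked transcripts split the arrays within each group. Y-linked transcripts were high in T lineage replicate 1, deficient replicate 2 and wildtype replicates 1 and 3, and Xist in the other arrays. Among arrays with high Y-linked transcripts, 39 of the 44 genes were lower in the 1 deficient array than in the mean of the 2 wildtype arrays. Their median was -0.16, against 0.01 for all probesets. Among arrays with high Xist, 25 were lower in the mean of the 2 deficient arrays than in the 1 wildtype array. The median there was -0.05, against -0.02 for all probesets. With the contrast of Y-linked and Xist transcripts as a covariate the count of 9 became 5. For T lineage minus wildtype cells the medians within these 2 sets were -0.55 and -0.42, against 0.05 and 0.02 for all probesets, with 35 and 38 genes below 0. How many of all probesets lay below 0 within these sets was not counted.

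**Figure D3:**
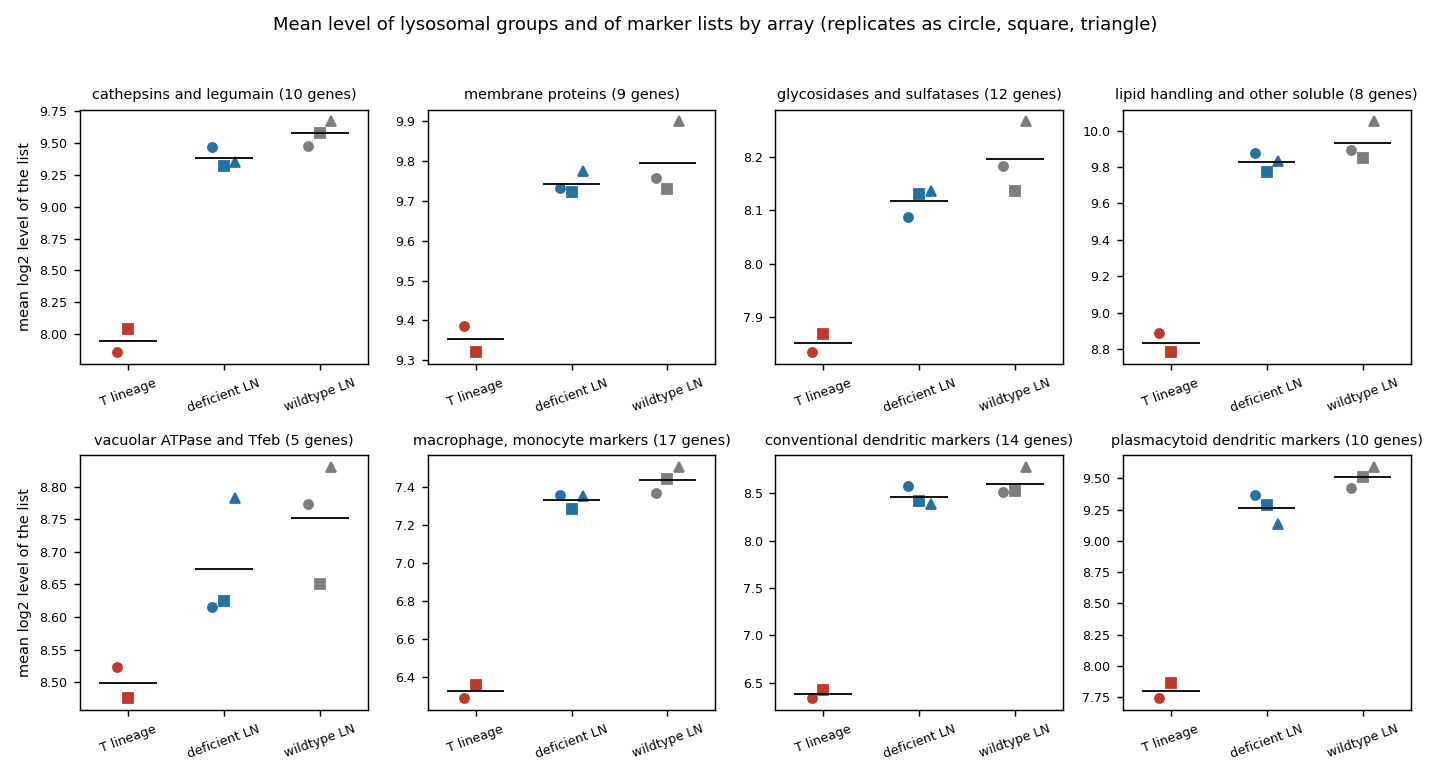
Mean log2 level per array of the 5 groups of lysosomal genes and of 3 marker lists, for T lineage (red), deficient lineage-negative (LN, blue) and wildtype LN cells (grey), with a line at each group mean and a scale of its own in each panel. Both T lineage arrays are lowest in every panel, and wildtype replicate 3 (grey triangle) is highest in every panel.

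The other genes of the lysosomal pathway were followed in 6 lists, 122 measured of 136 listed, also chosen with earlier results known. In T lineage against wildtype lineage-negative cells 41 of the 122 fell (33.6%, against 10.4% of all probesets), 10 rose (8.2%, against 7.66%) and 71 did not pass. Against deficient cells 41 fell (33.6%, against 8.16% of all probesets), 8 rose (6.56%, against 5.98%) and 73 did not pass. The shares that rose were near those of all probesets in both comparisons. Between deficient and wildtype cells limma called none of the 122, and 9 had an unadjusted p under 0.05, which 4.92% of all probesets had. The median differences were -0.15, -0.11 and -0.03 in these 3 comparisons.

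Of 27 other lysosomal hydrolases, 10 fell and 3 rose against wildtype cells. Plbd1, a phospholipase B-like protein, read 6.23 and 6.19 in T lineage arrays, against 10.37, 10.10 and 10.05 in deficient and 10.04, 10.09 and 10.49 in wildtype lineage-negative arrays. Its lineage-negative groups overlapped and the T lineage arrays lay far below (difference -3.99, SE 0.14, limma adjusted p = 3.5e-08). The serine carboxypeptidase Scpep1 (-3.34), the acid amidase Naaa (-2.23) and Ifi30 (-1.69), a thiol reductase of antigen processing, also fell. The galactosylceramidase Galc (0.88), the tartrate-resistant phosphatase Acp5 (0.87) and Ctsw (0.59), a cathepsin of cytotoxic lymphocytes, rose.

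Of 14 other vacuolar ATPase subunits and accessory proteins, 10 fell and none rose. The falls were small, with Atp6v0b at -0.78, Atp6v0a1 at -0.67, Atp6ap1 at -0.52 and Atp6v1g1 at -0.48. Of 28 other membrane proteins and transporters, 12 fell and 3 rose. The amino acid sensor Slc38a9 (-1.06, and -0.62 on its other probeset, both called) and the cobalamin transport protein Lmbrd1 (-0.86) fell, while the calcium channel Mcoln2 (1.07) and the iron transporter Slc11a2 (0.81) rose.

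Of 19 genes of the MiT factors (the family of Tfeb) and of mTORC1 control at the lysosome, 5 fell and 2 rose. Tfec, an MiT factor of myeloid cells, read 5.88 and 5.95 in T lineage arrays, against 9.22, 8.71 and 8.95 in deficient and 8.66, 8.91 and 9.31 in wildtype lineage-negative arrays. The T lineage arrays were far below both lineage-negative groups, which overlapped (difference -3.05, SE 0.18, 8.26-fold, limma adjusted p = 1.2e-06). Mitf differed by -0.71 on its brighter probeset and fell, while its other probeset differed by -0.20 and did not pass. The folliculin partners Fnip2 (-0.85) and Fnip1 (-0.62) fell as well.

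Of 22 genes that deliver enzymes to lysosomes, 3 fell, 1 rose and 18 did not pass, so that 18.2% were called, near the 18% of all probesets. Those called were Vps41 (-0.57) of the HOPS tether, Gnptab (-0.37), which builds the mannose phosphate tag, and the AP3 adaptor subunits Ap3b1 (-0.37) and Ap3s1 (0.36). Of the 3 probesets of Ap3s1, the brightest passed narrowly (limma adjusted p = 0.0417), and 1 of the others did not pass (0.34, limma adjusted p = 0.0567). Of 12 cystatins and other cathepsin inhibitors, Cst3 (-1.53), the secreted cystatin C, fell and Cst7 (0.28), a cystatin of leukocytes, rose, so that 16.7% were called, also near the 18% of all probesets.

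**Figure D4:**
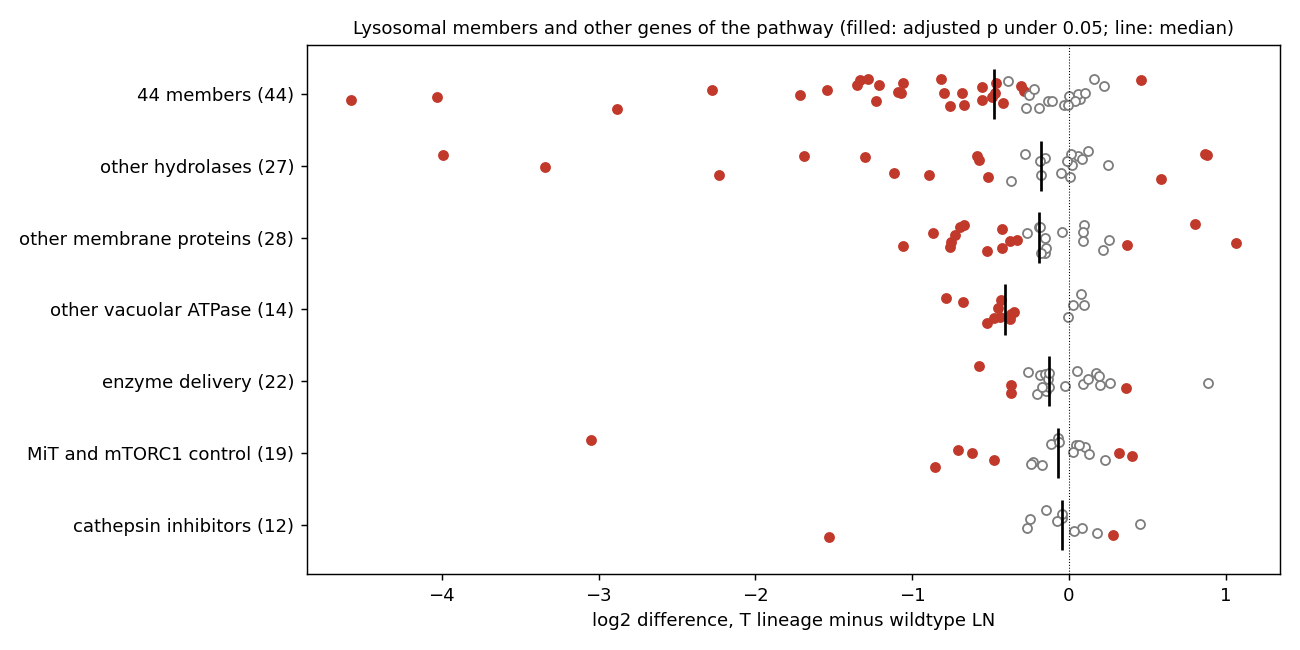
Log2 differences of T lineage minus wildtype lineage-negative cells for the 44 lysosomal genes and 6 lists of other pathway genes, 1 point per gene, with numbers of genes in parentheses and a vertical line at each list's median. Filled points have an adjusted p under 0.05: 28 of the 44 lysosomal genes and 51 of the 122 others, with the largest falls at Ctsh (-4.58), Ctss (-4.03), Plbd1 (-3.99) and Scpep1 (-3.34).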

How the data were processed

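The deposited table holds log2 expression values per probeset for 8 arrays. The authors made these log2 values with RMA in Partek 6.5, per the submitters' processing notes, from 10 ng of amplified total RNA per array, per the labels' protocols. Not given in the sources used here are other settings of RMA, scan dates and a genome build. RMA sets the arrays to 1 common distribution, so a shift shared by most genes would not be seen. The small number of arrays limits how precise each difference is.

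Of 35399 probesets, 11989 without a listed gene and 1621 with several were left out, leaving 21789. One limma fit (limma 3.58.1, R 4.3.3, lmFit and eBayes) held all 8 arrays in 3 groups, with 5 residual degrees of freedom. Tests were two-sided, with Benjamini-Hochberg adjustment over the 21789 probesets and a call at an adjusted p under 0.05. The fit was tested on simulated data with independent noise of the same spread in all 3 groups. Genes whose spread differed between groups, such as Ctss, were not covered by that test.

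The 44 members and all lists were chosen with earlier results of these data known. Members given with every array's value were the 10 called with the largest difference between T lineage and wildtype lineage-negative cells, those called with the largest rise there, and the 3 with the largest difference between deficient and wildtype cells. Of each list of other pathway genes, up to 4 called genes with the largest differences were named, and the risers Galc, Acp5 and Ctsw were named after their values were seen. A gene with several probesets went by the brightest. Marker lists covered macrophage and monocyte, conventional dendritic, plasmacytoid dendritic, granulocyte, mast cell and basophil, stromal and T lineage cells. The lineage-negative replicates are separate mice, per the labels. The 2 T lineage replicates are labelled as biological replicates, and the mice they came from are not named.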

Additional observations from a re-analysis of the deposited data

How the results depend on the processing

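The counts of called members and the differences of the 12 members given by array were computed again under 18 alternatives: without each array in turn, with the replicate block, median centring, a second quantile normalization, without the dimmest 40% of probesets (which left 41 of the 44 members), over all 35399 probesets, with only the 2 groups compared, with array weights, with a mean trend in the prior, with a covariate of sex-linked transcripts, and with the probeset of smallest p. The lysosomal genes called lower ranged between 23 and 28 for T lineage minus wildtype cells and between 20 and 25 for T lineage minus deficient cells without 1 array. Of the calls, 22 of 28 and 18 of 26 were kept under all 18. The 1 gene called higher, Ctsd, became 0 against wildtype cells over all probesets (limma adjusted p = 0.0653) and between 0 and 1 without 1 array, and 0 against deficient cells over all probesets, with only the 2 groups compared and with array weights, again between 0 and 1 without 1 array. Deviations from the group means correlated across probesets between arrays of the same number with r of -0.13, 0.0169 and 0.0431 for deficient and wildtype lineage-negative, -0.138 and -0.247 for T lineage and deficient, and 0.158 and 0.12 for T lineage and wildtype lineage-negative arrays. With only 2 T lineage arrays, their deviations from the group mean mirror each other. Each r with 1 of them therefore recurs with the opposite sign for the other, and says little about pairing. The labels do not say that a number marks a shared mouse or day, and the samples were not taken as paired. With the replicate block, 26 lysosomal genes were called against wildtype cells (Lamp1 and Atp6v1h were lost), 25 against deficient cells (Tpp1 was lost) and 0 between the lineage-negative groups. Between deficient and wildtype cells no lysosomal gene was called under any alternative. The count at an unadjusted p, whose alternatives were added after the data were seen, ranged between 2 and 11 and was 5 over all probesets and 5 with the sex covariate. Differences near 0 in that comparison changed sign without 1 array, Asah1 lying between -0.21 and 0.042, Ctsd between -0.057 and 0.058, Lipa between -0.11 and 0.037 and Psap between -0.098 and 0.052, and Psap was 0.034 with the sex covariate. The cause was not tested. The 2 arrays of the T lineage group limit the precision of its values.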
